A study of Homo sapiens with 4 samples.

Results

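The levels of 10 immediate early genes, FOS, FOSB, FOSL2, JUN, JUNB, JUND, ATF3, EGR1, EGR2 and IER2, were examined in Kasumi-1, a human acute myeloid leukemia (AML) cell line, with and without knockdown of ANP32B. The genes were chosen by name and matched to symbols through their Ensembl IDs, and all 10 were found among the 18567 genes of the deposited table. The control group, NC, holds 2 samples that the labels describe as untreated and lacking an shRNA, although according to the methods controls carried a hairpin called sh-NC. The knockdown group, sh-ANP32B, holds 2 samples, and the methods describe lentiviral hairpins with puromycin selection. Which of the study's ANP32B hairpins each knockdown sample carried is not given in the labels. If NC carried no hairpin, infection and selection cannot be told apart from the knockdown in any difference given here. The methods speak of independent repeats for the experiments in general. For these RNA-seq samples the labels do not say that the 2 of a group were separate cultures, so p-values measure the spread between these samples, which may be technical.

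Immediate early genes are transcribed within minutes of a stimulus without new protein synthesis, because the transcription factors that switch them on, among them SRF with its ternary complex partners and CREB, are already present and are activated by ERK, JNK and p38 kinases. FOS and JUN family proteins join through leucine zippers to form AP-1, which binds the element TGANTCA, and EGR proteins are zinc finger factors that bind GC-rich DNA. In myeloid cells, AP-1 and EGR factors are known for their part in monocyte and macrophage differentiation and in inflammatory gene expression, and MAP kinase phosphatases and RNA-binding proteins of the ZFP36 family shut the response down.

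The promoter sequences of FOS, JUN, ATF3 and EGR1 are shown because they carry elements through which this class of gene is known to respond. They were also chosen because the first 3 genes were higher and the last was lower in both knockdown samples, although none passed the test across all genes. A link between the elements and these directions was not tested. Each is the 150 bases before the transcription start, from RefSeq (GRCh38.p14), 5′ to 3′ on the strand of the gene, and capitals mark every match, on either strand, to the 5 motifs described in the next paragraph. FOS lies at chr14:75278678-75278827 on the plus strand, JUN at chr1:58784048-58784197 on the minus strand, ATF3 at chr1:212565257-212565406 on the plus strand (the first of its 2 annotated starts) and EGR1 at chr5:138465329-138465478 on the plus strand.
FOS: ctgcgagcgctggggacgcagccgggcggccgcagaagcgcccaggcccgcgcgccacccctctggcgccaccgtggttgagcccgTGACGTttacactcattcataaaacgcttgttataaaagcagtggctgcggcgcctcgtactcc
JUN: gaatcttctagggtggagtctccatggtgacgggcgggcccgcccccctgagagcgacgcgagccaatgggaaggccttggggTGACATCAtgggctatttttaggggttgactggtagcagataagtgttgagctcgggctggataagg
ATF3: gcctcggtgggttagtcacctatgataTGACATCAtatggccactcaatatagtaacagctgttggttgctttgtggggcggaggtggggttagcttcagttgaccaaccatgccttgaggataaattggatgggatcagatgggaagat
EGR1: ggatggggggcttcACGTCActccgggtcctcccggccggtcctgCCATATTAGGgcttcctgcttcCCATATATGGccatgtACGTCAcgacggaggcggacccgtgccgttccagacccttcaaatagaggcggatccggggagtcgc

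All 10 genes were matched to RefSeq, with 13 promoter windows in all, and the 250 bases before each start were searched. The CArG box, to which SRF binds, was found in EGR1 and EGR2, against 1.16% of 34943 windows of the same length. EGR1 held the matches CCATATTAGG and CCATATATGG, which began 105 and 83 bases before the start. TGACGT, the core of the CREB element, was found in FOS, FOSB, FOSL2, JUND, EGR1 and EGR2, against 7.09% of all windows. In FOS, FOSB and FOSL2 it began 64, 60 and 66 bases before the start. TGACNTCA, an element of JUN and ATF family dimers that overlaps TGACGT where N is G, was found in JUN, JUND and ATF3, against 6.86% of all windows, and JUN and ATF3 shared the same match, TGACATCA. GCGNGGGCG, the EGR element, was found in EGR1 (8.39% of all windows), and TGANTCA was found in 0 of the 13 windows of these genes (6.59% of all windows). Sequence outside these 250 bases was not searched, so a gene without a match here, such as FOS for the CArG box, may hold one elsewhere. These matches are descriptions of the letters in the windows, and binding was not measured.

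The deposited values are in TPM, a unit that gives each gene its share of the transcripts of a sample after scaling by length, in which levels of different genes can be compared. TPM holds no sequencing depth, so the depth was unknown and no counting error could be given. ANP32B, which checks the labels, had 383.8 and 392 TPM in the NC samples, compared with 51.8 and 41.2 TPM after knockdown. Of 6 genes fixed as markers of the line, 4 had a row. Among these, RUNX1 had 120.5 to 142.6 TPM and CD33 had 58.5 to 70.1 TPM. RUNX1T1, the fusion partner of RUNX1 in this line, had 15.6 to 31.2 TPM, whereas KIT, which carries an activating mutation in Kasumi-1, had 1.55 to 3.41 TPM, and CD34 and MPO had no row. HOXA9 and MEIS1, homeobox genes known for high expression in KMT2A-rearranged AML and chosen here after their values were seen, had 150.2 to 194.5 TPM and 49.9 to 64.3 TPM. POU4F1, known for high expression in AML with the RUNX1-RUNX1T1 fusion and chosen in the same way, had 16.1 to 22.9 TPM. The values of RUNX1T1 and POU4F1 go with the label, whereas those of KIT, CD34, MPO, HOXA9 and MEIS1 go against it. The identity of the cells was not tested, and Kasumi-1 is used only as their label. Among the markers of other cell types given here, PECAM1 and NCAM1 had a row, and CD3E, MS4A1, HBB, EPCAM, KRT18, COL1A1 and PPBP had none.

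The 10 genes covered a wide range of levels. In NC, mean levels ran in the order FOS (77.5 ± 1.48 TPM), IER2 (62.1 ± 3.13), JUND (52.0 ± 8.11), FOSL2 (49.5 ± 3.23), JUNB (44.6 ± 2.03) and JUN (29.4 ± 1.40), followed by ATF3 (6.62 ± 0.162), EGR1 (2.48 ± 0.801), FOSB (1.54 ± 0.362) and EGR2 (0.623 ± 0.233; SD, n = 2 each). JUND and FOSL2 overlapped in their NC values and are not ordered by them, whereas each other neighbouring pair in this order did not overlap. FOS stood at percentile 90.8 of the mean levels of all genes in the table, ATF3 at 44.8 and EGR2 at 5.17. In sh-ANP32B the values of FOS, JUND, IER2, FOSL2 and JUNB overlapped those of the next gene down, so these and JUN are not ordered there. ATF3, EGR1, FOSB and EGR2 kept their places, each without overlap.

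**Figure D1:**
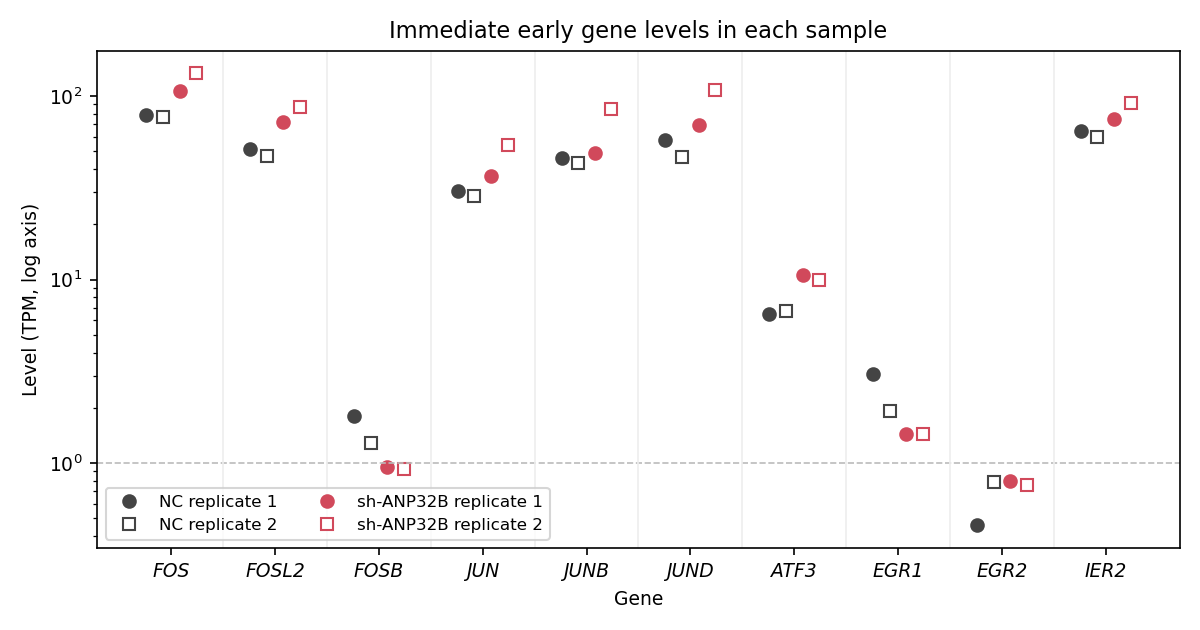
Level of each gene in TPM (log axis) in the 4 samples, with NC in grey, sh-ANP32B in red, replicate 1 filled and replicate 2 open, and a dashed line at 1 TPM. FOS, FOSL2, JUN, JUNB, JUND, ATF3 and IER2 lie higher in both knockdown samples, FOSB and EGR1 lie lower, and EGR2 stays under 1 TPM.

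Comparing sh-ANP32B with NC, 7 of the 9 genes tested were higher and 2 were lower in both knockdown samples, but none passed the test across all genes. Of all genes tested, 57.9% had a positive fold change. The limma test was run on log2(TPM + 1) for genes that reached 1 TPM in 2 or more samples, so the fold changes are differences on that scale and understate the change of low genes. With 0 of the 9 genes at an adjusted p under 0.05, the background was 3.32% of 16817 genes called in either direction, 2.14% higher and 1.18% lower (360 and 199 genes, against 231 and 290 after median-of-ratios scaling). An unadjusted limma p under 0.05 was found for 6 of the 9, all higher, where 15.0% of all genes were higher at that p and 23.8% passed it in either direction. The limma test of all genes called no gene with an unadjusted p above 0.00166, and since exact permutation over 2 against 2 samples has 0.333 as its smallest two-sided p, it was not used. The study set a p under 0.05 and an absolute log2 fold change over 0.5 in DESeq2, without saying whether p was adjusted. These cut-offs were applied here to the unadjusted limma p and to log2(TPM + 1), so the counts are not those of the study's test. By them 5 genes were higher (FOS, FOSL2, JUN, JUND and ATF3), where 12.1% of all genes were, and 0 were lower, where 6.55% were. The groups did not overlap for the 7 higher genes, where 33.2% of all genes were higher without overlap, and for the 2 lower genes, where 21.4% were. FOSB passed the filter only through its NC values, so that its groups had to differ, and EGR2 did not pass it. The median log2 fold change of the 9 genes was 0.56, beside 0.08 for all genes tested. In these bulk samples a change in the share of cells that express a gene cannot be told apart from a change in RNA per cell.

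**Figure D2:**
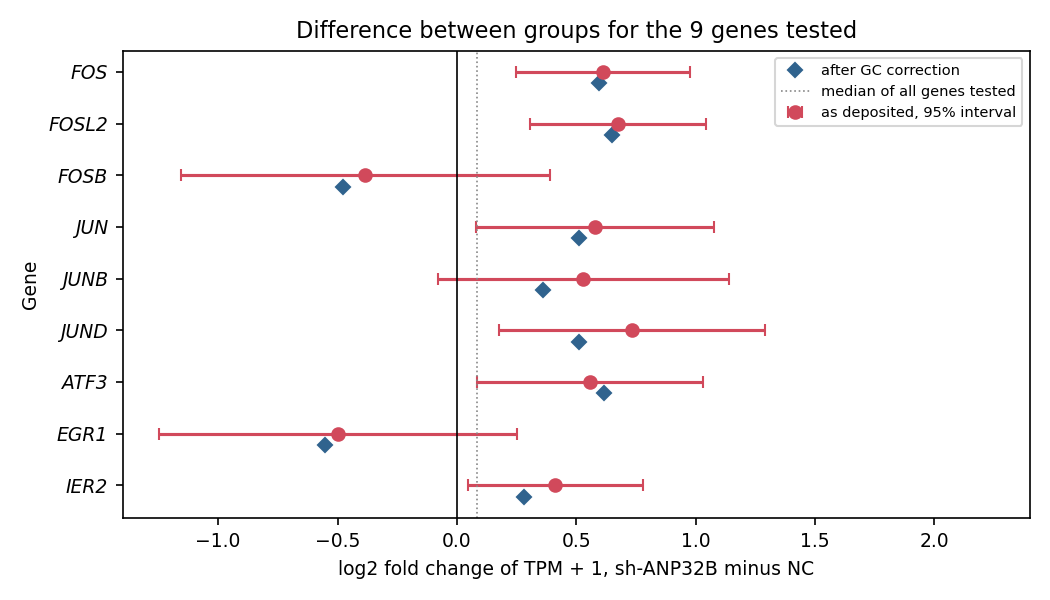
log2 fold change of TPM + 1, sh-ANP32B minus NC, for the 9 genes tested, as deposited with the 95% limma interval (red circles) and after correction for GC content (blue diamonds). Intervals of FOS, FOSL2, JUN, JUND, ATF3 and IER2 lie above 0, and those of JUNB, FOSB and EGR1 include it. The dotted line is the median of all genes tested, 0.08.

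FOS (ENSG00000170345, chr14:75278826-75282230, hg38, plus strand), the founding FOS family member and a labile partner of JUN proteins, had 78.6 and 76.5 TPM in the NC samples, compared with 107 and 133 TPM after knockdown. Both knockdown samples lay above both controls, with means of 77.5 ± 1.48 and 119.8 ± 18.7 TPM (SD, n = 2 each), 1.54 times as high. Its log2 fold change was 0.61 (SE 0.152, 95% interval 0.25 to 0.98, limma adjusted p 0.0771).

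FOSL2 (ENSG00000075426, chr2:28392448-28417317, plus strand), which encodes FRA2, a longer-lived FOS family member, followed the same pattern. It had 51.8 and 47.2 TPM in the NC samples, compared with 72.3 and 87.4 TPM after knockdown, 1.61 times as high, and the groups did not overlap. At 0.67 (SE 0.155, 95% interval 0.30 to 1.04), its log2 fold change had the lowest adjusted p of the 9 genes (limma adjusted p 0.0663). An antisense RNA and a noncoding gene overlap FOSL2 in the annotation, and whether reads were counted by strand is not given in the sources used here. The overlapping gene with a row, ENSG00000270640, had 0.399 to 1.34 TPM.

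FOSB (ENSG00000125740, chr19:45467995-45475179, plus strand), the FOS family member whose splice form ΔFOSB is long-lived, was scarce. Its level was 1.80 and 1.28 TPM in the NC samples, compared with 0.951 and 0.926 TPM after knockdown, so that it lay on the opposite side from FOS and FOSL2. On the log2 scale the difference was -0.38 (SE 0.323, 95% interval -1.16 to 0.39, limma adjusted p 0.522). FOSB overlaps ERCC1 on the opposite strand, a repair gene that had 48.5 to 94.8 TPM and was higher in both knockdown samples, so the value of FOSB is uncertain.

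Within the FOS family the shares of FOS and FOSL2 were close in both groups. FOS, FOSB and FOSL2 together had 132 and 125 TPM in the NC samples, compared with 179.7 and 221 TPM after knockdown, a mean 1.56 times as high. FOS made up 60.3% ± 1.23 of the sum in NC and 59.7% ± 0.590 in sh-ANP32B, and FOSL2 38.5% ± 0.995 and 39.8% ± 0.511. FOSB made up 1.19% ± 0.235 and 0.474% ± 0.0781 (SD, n = 2 each).

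JUN (ENSG00000177606, chr1:58776845-58784048, minus strand), the founding partner of FOS and a target of JNK, had 30.4 and 28.4 TPM in the NC samples, compared with 36.5 and 53.9 TPM after knockdown. Both knockdown values were higher, but they differed from each other by more than the lower of them differed from NC. The log2 fold change was 0.58 (SE 0.209, 95% interval 0.08 to 1.08, limma adjusted p 0.161).

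JUNB (ENSG00000171223, chr19:12791486-12793315, plus strand), known as a brake on myeloid proliferation, had 46.0 and 43.1 TPM in the NC samples, compared with 49.0 and 85.5 TPM after knockdown. Replicate 1 of sh-ANP32B lay just above NC and replicate 2 carried most of the difference. In the fit JUNB had a log2 fold change of 0.53 (SE 0.255, 95% interval -0.08 to 1.14, limma adjusted p 0.265). Against the NC mean, the log2 difference was 0.14 in replicate 1 and 0.92 in replicate 2. The gene overlaps HOOK2 on the opposite strand, which had 26.9 to 38.3 TPM.

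JUND (ENSG00000130522, chr19:18279694-18281622, minus strand), the JUN family member usually expressed in resting cells, had the highest mean level of the family in both groups. It had 57.8 and 46.3 TPM in the NC samples, compared with 69.3 and 108 TPM after knockdown, 1.71 times as high, and the groups did not overlap. Its log2 fold change was 0.73 (SE 0.234, 95% interval 0.17 to 1.29, limma adjusted p 0.127). It was 0.51 after correction for GC content and 0.41 without sh-ANP32B replicate 2.

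The JUN family sum was 134 and 118 TPM in the NC samples, compared with 155 and 248 TPM after knockdown, a mean 1.60 times as high. JUND made up 41.2% ± 2.66 of it in NC and 44.2% ± 0.734 in sh-ANP32B, JUNB 35.5% ± 1.63 and 33.1% ± 2.01, and JUN 23.4% ± 1.03 and 22.7% ± 1.28 (SD, n = 2 each). The ratio of the FOS family sum to the JUN family sum was 0.985 and 1.06 in NC and 1.16 and 0.894 in sh-ANP32B. The knockdown samples lay on either side of both controls in this ratio.

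ATF3 (ENSG00000162772, chr1:212565334-212620777, plus strand), a stress-induced member of the ATF family that pairs with JUN proteins, had 6.50 and 6.73 TPM in the NC samples, compared with 10.5 and 9.92 TPM after knockdown. Here both groups were tight, with means of 6.62 ± 0.162 and 10.2 ± 0.434 TPM (SD, n = 2 each), 1.55 times as high. The log2 fold change was 0.56 (SE 0.198, 95% interval 0.09 to 1.03, limma adjusted p 0.156).

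EGR1 (ENSG00000120738, chr5:138465479-138469303, plus strand), an activator associated with macrophage fate, had 3.05 and 1.92 TPM in the NC samples, compared with 1.43 and 1.44 TPM after knockdown. The knockdown samples were nearly equal and lay below both controls, which differed from each other by more than the lower control differed from them. On the log2 scale the difference was -0.50 (SE 0.313, 95% interval -1.25 to 0.25, limma adjusted p 0.387). It was -0.26 without NC replicate 1 and -0.73 without NC replicate 2.

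EGR2 (ENSG00000122877, chr10:62811996-62819167, minus strand), a relative of EGR1 that also acts in myeloid and lymphoid cells, stayed under 1 TPM throughout. It had 0.458 and 0.788 TPM in the NC samples, compared with 0.798 and 0.758 TPM after knockdown, the groups overlapped, and it was not tested. The other EGR genes, EGR3 and EGR4, had no row.

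IER2 (ENSG00000160888, chr19:13150411-13154911, plus strand), a nuclear protein of the growth factor response outside the AP-1 and EGR families, had 64.4 and 59.9 TPM in the NC samples, compared with 75.0 and 91.8 TPM after knockdown. The groups did not overlap and the knockdown mean was 1.34 times as high. The log2 fold change was 0.41 (SE 0.153, 95% interval 0.05 to 0.78, limma adjusted p 0.171).

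The knockdown replicates differed from each other in relation to GC content. Across 15427 genes, the log2 difference of sh-ANP32B replicate 2 from replicate 1 had a Spearman rho of 0.577 with the GC content of the longest transcript, and that between the NC replicates had -0.206. Genes are not independent and these values describe the libraries. Of the 10 immediate early genes, 9 had a GC content above the median of 48.1%. In 6 of the 7 higher genes replicate 2 exceeded replicate 1. The log2 difference was 0.79 for JUNB (64.9% GC), 0.64 for JUND (69.9%), 0.55 for JUN (56.1%), 0.32 for FOS (52.8%), 0.29 for IER2 (61.7%), 0.27 for FOSL2 (53.3%) and -0.08 for ATF3, the lowest in GC (46.7%). For the lower genes it was 0.0017 for EGR1 (55.3%) and -0.018 for FOSB (57.6%), although their GC content was close to that of JUN.

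**Figure D3:**
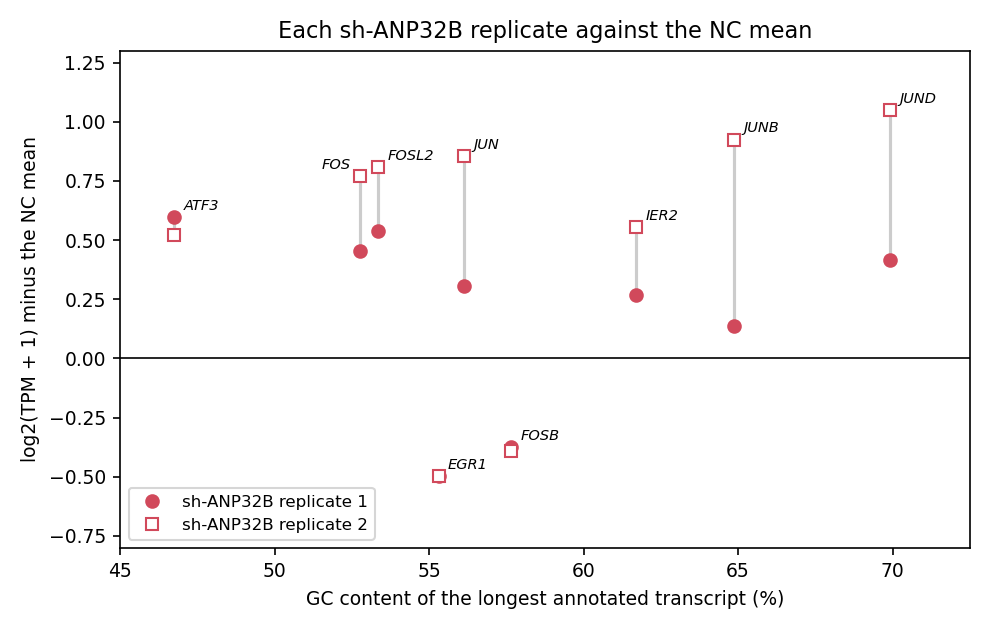
log2(TPM + 1) of each sh-ANP32B replicate minus the NC mean (y axis) against the GC content of the longest transcript (x axis, %) for the 9 genes tested. Replicate 2 (open squares) lies far above replicate 1 (circles) for JUNB, JUND and JUN, and the replicates lie close together for ATF3, EGR1 and FOSB.

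After GC content was corrected in each sample, FOS, FOSL2, JUND and ATF3 were called higher, 4 of the 9 genes, where 11.3% of 15427 genes were called higher and 6.65% lower in that fit. Their log2 fold changes were 0.60, 0.65, 0.51 and 0.62, with limma adjusted p of 0.0143, 0.0108, 0.0246 and 0.0391. The correction lowered the log2 fold change of JUNB from 0.53 to 0.36, that of JUND from 0.73 to 0.51 and that of IER2 from 0.41 to 0.28, and raised that of ATF3 from 0.56 to 0.62. With the uncorrected values, of which none was called over all 4 samples, FOS and FOSL2 had log2 fold changes of 0.45 and 0.54 without sh-ANP32B replicate 2. JUN, JUNB, JUND and IER2 had log2 fold changes of 0.30, 0.14, 0.41 and 0.27 there. Without sh-ANP32B replicate 1, FOS, FOSL2, JUN, JUNB, JUND and IER2 were called, at log2 fold changes from 0.56 to 1.05, where 14.6% of all genes were called higher. Calls among the 9 genes were not limited to that fit, since FOS and FOSL2 were also called without sh-ANP32B replicate 2. Across all genes, too, both fits gave more calls than the fit of all 4 samples. In both fits the lone knockdown sample is assumed to vary like the NC pair, and their calls rest on that assumption. Without NC replicate 1, and without NC replicate 2, 0 of the 9 were called by limma, with 3 and 0 at an unadjusted p under 0.05, where 11.8% and 11.2% of all genes were.

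The other genes of the pathway were taken from lists written with earlier results of these data known. Beside each list below, 2.14% of all genes tested were called higher and 1.18% lower, and 57.9% had a positive fold change. Among 31 other immediate early genes, 26 were tested, of which limma called 3 higher (ZFP36L1, BTG2 and KLF6) and 1 lower (MYC), and 22 did not pass. Their median log2 fold change was 0.52, and 22 were positive and 4 negative. TRIB1, among the positive genes, passed the filter only through its knockdown values, so that its groups had to differ. ZFP36L1, which destabilises AU-rich mRNAs, had 10.1 and 10.6 TPM in the NC samples, compared with 28.4 and 31.9 TPM after knockdown, which is 1.45 on the log2 scale (SE 0.170; adjusted p by limma, 0.0261). BTG2, an antiproliferative gene, had 7.38 and 11.5 TPM in the NC samples, compared with 23.3 and 26.3 TPM after knockdown, which is 1.33 on the log2 scale (SE 0.236; adjusted p by limma, 0.0440). KLF6, a Krüppel-like zinc finger factor, differed by 0.85 on the log2 scale (SE 0.148; adjusted p by limma, 0.0440), and MYC, which is itself an immediate early gene, fell by 1.18 on that scale (SE 0.137, limma adjusted p 0.0261). After GC correction 10 of the 26 were called higher and 2 lower, where 11.3% and 6.65% of all genes in that fit were.

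**Figure D4:**
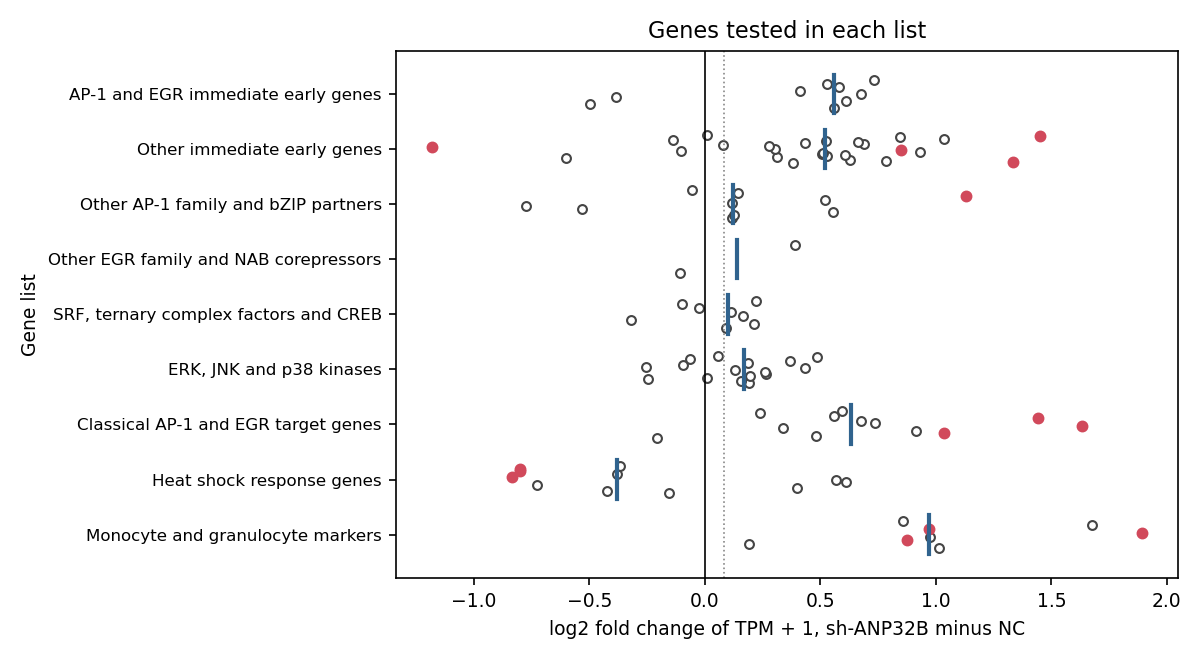
log2 fold change of TPM + 1, sh-ANP32B minus NC, of every tested gene in 9 lists. Filled red points have a limma adjusted p under 0.05, open points do not, blue bars are list medians, and the dotted line is the median of all genes tested. The 9 AP-1 and EGR genes have a median of 0.56 with 0 filled points, and the 16 kinases have a median of 0.17 with 0 filled points.

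Among the other AP-1 family and bZIP partner genes, 10 of 13 were tested. MAFF, a small MAF protein without a transactivation domain, was called higher, with 13.6 and 16.3 TPM in the NC samples, compared with 32.4 and 35.2 TPM after knockdown, or 1.13 on the log2 scale (SE 0.173; adjusted p by limma, 0.0362). The other 9 did not pass, and the median of the list was 0.12. FOSL1, which encodes FRA1, had 6.20 and 8.17 TPM in the NC samples, compared with 4.11 and 3.42 TPM after knockdown, on the opposite side from FOSL2 (log2 fold change -0.77, SE 0.248, limma adjusted p 0.128). NAB2 and NAB1, corepressors that bind EGR proteins, had log2 fold changes of 0.39 and -0.11 with limma adjusted p of 0.285 and 0.752.

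Among the upstream regulators no gene was called, where 3.32% of all genes tested were, so few calls could come from lists this short. Of the 8 SRF, ternary complex factor and CREB genes, limma called 0, and the median log2 fold change was 0.10. The largest differences were those of ELK1 (-0.32, SE 0.204, limma adjusted p 0.393) and SRF (0.22, SE 0.205, limma adjusted p 0.570), and in both the groups overlapped. Of the 16 ERK, JNK and p38 pathway kinases 0 were called, with a median of 0.17. RPS6KA4 and MAPK3, the latter encoding ERK1, had log2 fold changes of 0.48 and 0.43 with limma adjusted p of 0.219 and 0.234. In each of these lists 0 genes had an unadjusted limma p under 0.05, where 23.8% of all genes did. Kinase activity and phosphorylation were not measured.

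Of 17 classical AP-1 and EGR target genes, 12 were tested, and limma called 3 higher, 0 lower and left 9 uncalled. The median log2 fold change was 0.63. IL1B, an inflammatory cytokine, had 1.59 and 0.855 TPM in the NC samples, compared with 5.05 and 6.62 TPM after knockdown (log2 fold change 1.63, SE 0.304, limma adjusted p 0.0455). SPP1, which encodes osteopontin, had 33.0 and 29.4 TPM in the NC samples, compared with 97.7 and 76.3 TPM after knockdown (1.44, SE 0.171, limma adjusted p 0.0261). CXCL8, a neutrophil chemokine, had 26.2 and 32.6 TPM in the NC samples, compared with 68.4 and 54.2 TPM after knockdown (1.04, SE 0.185, limma adjusted p 0.0440). MMP1, TNF and THBS1 had no row.

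Heat shock genes can move with immediate early genes when cells are stressed or handled. All 11 were tested, and limma called 3 lower and 0 higher, with a median log2 fold change of -0.38, 8 negative and 3 positive. The called genes, HSPA8, a constitutive chaperone of the cytosol, and HSPD1 and HSPE1, the mitochondrial chaperonins, fell by 0.83, 0.80 and 0.80 on the log2 scale (limma adjusted p 0.0440, 0.0440 and 0.0392). The 3 positive genes, HSPA1A, HSPA1B and DNAJB1, had log2 fold changes of 0.61, 0.57 and 0.40 (limma adjusted p 0.271, 0.260 and 0.175). Genes of the list thus lay on both sides, and a part of stress or handling in them was not tested.

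Of 12 listed monocyte and granulocyte markers, 8 had a row and were tested, and limma called 3 higher and 0 lower and left 5 uncalled, with a median log2 fold change of 0.97. The summed level of the 8 was 842 and 890.0 TPM in the NC samples, compared with 1680.2 and 1759 TPM after knockdown, most of it LYZ. ITGAX, the integrin CD11c, had 10.4 and 10.6 TPM in the NC samples, compared with 41.7 and 41.6 TPM after knockdown (log2 fold change 1.89, SE 0.158, limma adjusted p 0.0154), and LYZ and CSF3R had log2 fold changes of 0.97 and 0.88 (limma adjusted p 0.0281 and 0.0455). The defining monocyte genes CD14, FCGR3A, FCN1 and VCAN had no row. The part of these changes in the levels of the AP-1 genes was not tested.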

How the data were processed

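Libraries were made from total RNA with the Illumina TruSeq kit. The authors aligned reads to hg38 with HISAT2 (v2.0.5, also in the submitters' processing notes) and deposited TPM values for each sample. The program that made the TPM, its annotation and filters are not given in the sources used here. Columns summed to 997812 to 998314. Columns were matched to samples by name, and 16986 of 18567 gene IDs were found in GENCODE v44 (hg38), used for symbols, positions and GC content.

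The members, lists and tests were chosen with earlier results of these data known. The test, on log2(TPM + 1) for genes reaching 1 TPM in 2 or more samples, was limma 3.58.1 with an abundance trend (R 4.3.3), two-sided, with Benjamini-Hochberg adjustment over 16817 genes. The count test of the study could not be run on TPM. Named genes were all members, ANP32B and, in each other list, up to 6 called genes of largest fold change, or, where fewer than 2 were called, the 2 largest with a mean of at least 5 TPM. The positive heat shock genes and TRIB1 were named in addition. Markers of the line, the homeobox and POU genes and markers of other cell types were given by level, outside this rule. On simulated data of 16817 genes the fit recovered 56.3% and 95.7% of genes changed by 1 and 2 log2 units, and 5.39% of calls were false. The simulated noise was independent between genes and samples, without the GC-linked difference between these libraries, so these rates need not hold here. Changes as small as those of the immediate early genes were not simulated. GC correction was a loess fit (span 0.3) in each sample. Alternatives were other scalings, filters, a pseudocount of 0.1, no trend, a replicate block and leaving out each replicate. Some markers of other cell types are not reported here.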

Additional observations from a re-analysis of the deposited data

How the results depend on the processing

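The direction of all 9 genes tested was kept in the 89 values under other settings and in the 36 without 1 replicate. Since the groups of these genes did not overlap, leaving out 1 replicate could not reverse a direction. The other filters, the fit without the trend and the replicate block leave a fold change as it was, so direction was fixed there too. Of the 89 values, 80 kept their side of the threshold and 9 passed it. Of the immediate early genes 0 were called as reported. GC correction gave 4 calls, the replicate block gave 2 (FOSL2 and JUND), both together gave 3, and fits without 1 replicate gave 0 to 6. By the study's criterion 5 passed as reported, 3 passed when values were scaled by median of ratios, and 0 to 7 passed without 1 replicate. Calls among all genes, 559 as reported, numbered 2772 after GC correction, 1473 under the replicate block, 2350 under both together, 0 without the abundance trend (3701 at an unadjusted limma p under 0.05) and 273 to 4079 without 1 replicate. Calls in the other lists, 14 as reported, numbered 35, 27, 32 and 0 in the same order and 6 to 48 without 1 replicate. The cause of these shifts was not tested. For the study's criterion, the share of all genes passing was taken only in the fit as reported (12.1% higher and 6.55% lower). The counts by that criterion under other settings and without 1 replicate therefore cannot be told apart from a shift across all genes. Of all genes called, 360 were higher and 199 lower as reported, against 231 and 290 after median-of-ratios scaling and 244 and 234 after quantile normalization. Deviations of samples that share a number had a Pearson r of -0.0925, nothing states that they were paired, and the block leaves 1 residual degree of freedom. TPM holds no depth, so the precision of the scarce EGR1, EGR2 and FOSB could not be given.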
